A study of Mus musculus with 14 samples.

Results

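The epithelial-mesenchymal transition (EMT) genes described here are 10 genes chosen by name out of the 56414 genes in the count table. They are the transcription factors Zeb1, Zeb2, Snai1, Snai2 and Twist1, the mesenchymal products Vim, Cdh2 and Fn1, and the epithelial transcription factors Ovol1 and Grhl2. Measured values were not the rule of choice, but earlier results of these data were known when it was made. The table held 13 entries with one of these symbols, and for Zeb1, Zeb2 and Cdh2 the entry with the highest mean was used. The other entries for these 3 genes averaged 21.5, 4.40 and 0.290 normalized counts.

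EMT is the change by which epithelial cells lose their junctions and polarity and acquire features of motile mesenchymal cells, and in carcinomas it often runs only part of the way. ZEB, SNAIL and TWIST factors drive it, with ZEB and SNAIL binding E-boxes in epithelial genes such as Cdh1 (E-cadherin) and repressing them, while OVOL and GRHL factors keep the epithelial program in place. The miR-200 family targets Zeb1 and Zeb2 transcripts and is itself repressed by ZEB proteins, which makes a double-negative loop. Fibroblasts and other stromal cells of a tumor make Vim, Fn1 and ZEB transcripts as well.

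Bulk polyA RNA sequencing was done on 14 mammary tumors of C57Bl/6 mice, with 1 library for each tumor. M/D-driven tumors arose in the animals themselves. Females of 6 to 9 weeks were implanted with a 50 mg pellet releasing the synthetic progestin medroxyprogesterone acetate (MPA) over 90 days. They were then gavaged repeatedly with 200 µL of the carcinogen 7,12-dimethylbenz[a]anthracene (DMBA) at 5 mg/mL, and tumors appeared at a later age. AT3 tumors grew from cells of 1 mouse mammary carcinoma line placed under the skin, so these tumors share 1 source of cancer cells. In both models, tumors of 0.25 cm2 were randomized to plain drinking water (4 M/D-driven and 3 AT3 tumors, called untreated) or to water with 0.5% nicotinamide (NAM), a form of vitamin B3, for 10 days (4 M/D-driven and 3 AT3 tumors).

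Libraries held 40936868 to 84178009 reads assigned to genes. The labels put the AT3 tumors in experiment 3, 7 M/D-driven tumors in experiment 1 and M/D-driven NAM-treated tumor 1 alone in experiment 2, so model and experiment cannot be told apart, nor can that tumor and its experiment. This tumor stood apart from the other 7. It had the lowest value of the 8 M/D-driven tumors for 8 of 8 basal and 6 of 8 luminal epithelial markers, and its summed B cell markers stood at 258464 normalized counts against 113 to 1735 elsewhere in the model. The NAM results in M/D-driven tumors are therefore also given without it. In bulk tumors, fewer cells of a type and less RNA per cell cannot be told apart.

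The mature 3p sequences of the miR-200 family are shown because their seeds are what pairs with Zeb1 and Zeb2 transcripts. They come from RefSeq (GRCm38.p6), are written 5′ to 3′, and carry the seed (bases 2 to 8) in capitals. Mir200b, Mir200a and Mir429 lie together on the minus strand of chromosome 4 and Mir200c and Mir141 on the minus strand of chromosome 6.
mmu-miR-200b-3p: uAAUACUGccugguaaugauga
mmu-miR-200c-3p: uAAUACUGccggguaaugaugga
mmu-miR-429-3p: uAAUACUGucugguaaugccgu
mmu-miR-200a-3p: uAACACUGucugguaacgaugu
mmu-miR-141-3p: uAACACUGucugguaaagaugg
The first 3 share the seed AAUACUG and the last 2 share AACACUG. Their mature ends on the genome are chr4:156055685-156055706, chr6:124718324-124718346, chr4:156053916-156053937, chr4:156054911-156054932 and chr6:124717917-124717938 in the order printed. Libraries of polyA RNA do not measure mature miRNAs, so only transcripts from their loci were counted.

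The 250 bases before the transcription start of Zeb2, Snai1 and Twist1 are shown because Zeb2 and Twist1 differed between the tumor models in opposite directions and because Snai1 carried the E-box that was searched for. This E-box, CACCTG or CAGGTG on the other strand, is the core site of ZEB and SNAIL proteins. It is in capitals where it occurs. The sequences are from RefSeq (GRCm38.p6), on the strand of each gene.
Zeb2, chr2:45117443-45117692, minus strand: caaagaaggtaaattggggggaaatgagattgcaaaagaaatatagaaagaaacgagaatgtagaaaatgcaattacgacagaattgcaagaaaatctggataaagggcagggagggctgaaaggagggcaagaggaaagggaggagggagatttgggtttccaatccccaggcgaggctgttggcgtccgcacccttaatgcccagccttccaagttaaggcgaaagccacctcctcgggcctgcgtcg
Snai1, chr2:167537945-167538194, plus strand: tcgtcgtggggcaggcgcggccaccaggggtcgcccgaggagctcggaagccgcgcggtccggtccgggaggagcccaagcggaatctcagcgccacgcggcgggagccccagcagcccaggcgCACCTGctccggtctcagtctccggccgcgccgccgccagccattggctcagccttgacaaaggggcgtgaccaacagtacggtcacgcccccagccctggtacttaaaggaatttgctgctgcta
Twist1, chr12:33957421-33957670, plus strand: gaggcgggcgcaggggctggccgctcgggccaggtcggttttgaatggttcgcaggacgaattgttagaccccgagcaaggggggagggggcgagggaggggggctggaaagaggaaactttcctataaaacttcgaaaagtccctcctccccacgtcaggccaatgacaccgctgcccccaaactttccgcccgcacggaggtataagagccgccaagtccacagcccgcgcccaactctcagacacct
The E-box occurred once in the Snai1 stretch, starting 126 bases before the transcription start, and not in the Zeb2 or Twist1 stretch. Of 32851 mouse promoters of this length, 5657 (17.2%) held at least 1 match. Stretches of 4 of the 10 EMT genes were searched, these 3 and Vim, and the Vim stretch had 0 matches. The Vim stretch, chr2:13574061-13574310, lay inside the Vim entry, which begins at 13573952. It is therefore not printed, and its 0 matches do not describe sequence upstream of that entry. For Zeb2, 4 transcription starts were listed, and only the start nearest the beginning of its entry was searched.

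**Figure D1:**
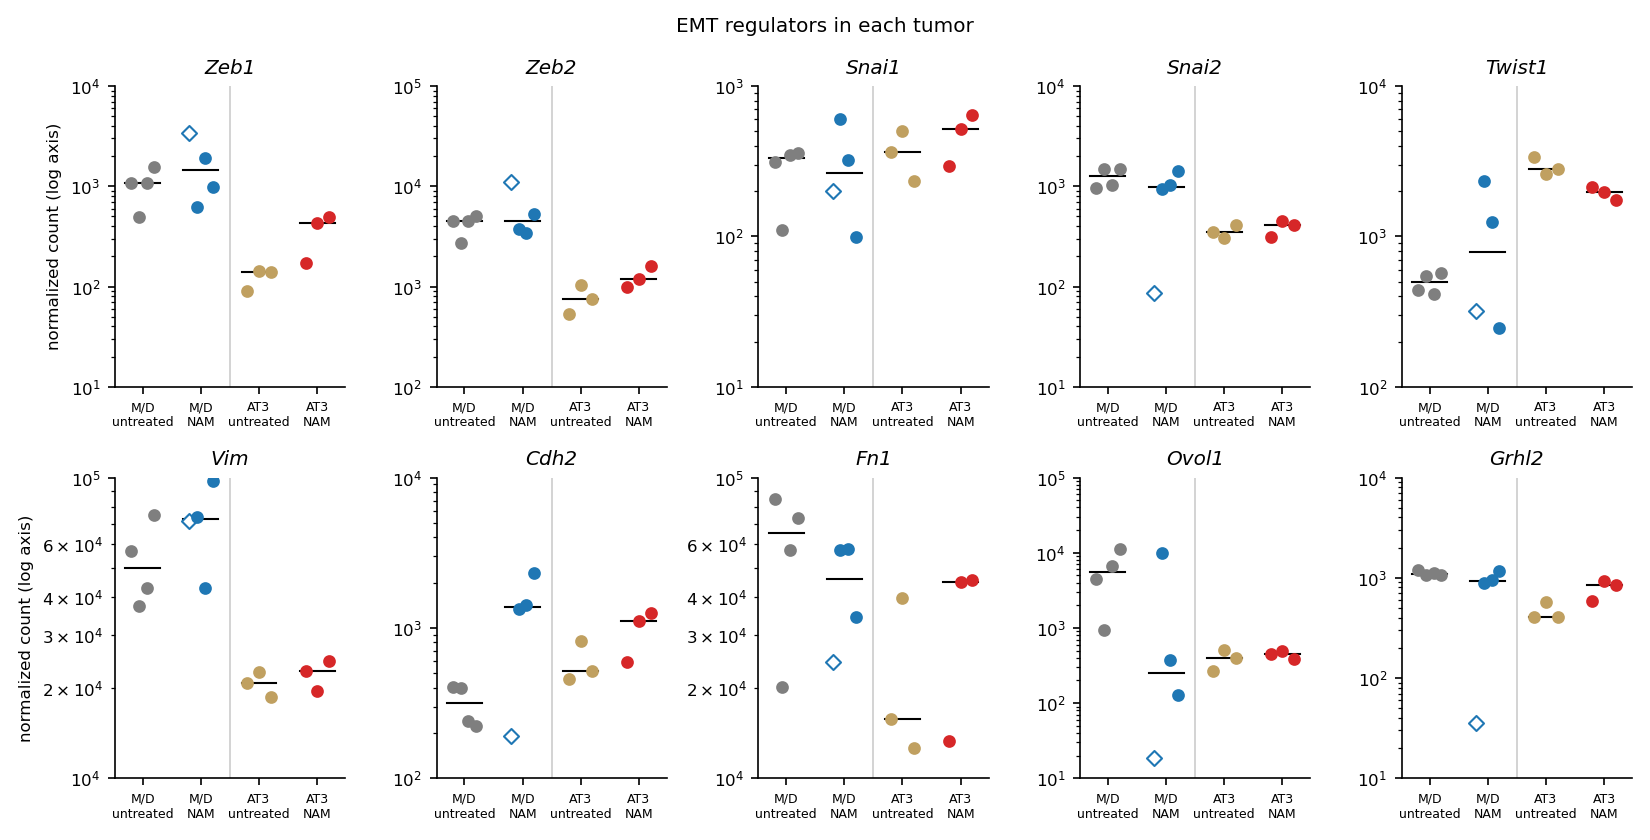
Normalized counts (log axis) of the 10 EMT genes in each of the 14 tumors, by model and treatment. Points are single tumors, black lines are group medians, and the open diamond is M/D-driven NAM-treated tumor 1, which had the lowest value of its model for Snai2, Cdh2, Ovol1 and Grhl2 and the highest for Zeb1 and Zeb2.

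Counts below are those the authors normalized, separately for each model, so levels are compared between models only on a common scale computed over all 14 tumors. A gene was called higher or lower when limma's unadjusted p was at most 0.05 and the fold at least 1.5, the thresholds of the study. Log2 differences were taken on log2(count + 1), ± gives their standard error (SE), and exact permutation tests are two-sided.

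The question put to the M/D-driven tumors was whether 10 days of NAM changed these genes in tumors that arose in the animal. Cdh2 was the gene called, higher with NAM, and none of the 10 was called lower. Over all 21700 genes tested, 3.03% were called higher and 3.19% lower. An unadjusted p under 0.05 was reached by 1 of the 10 in the limma test, Cdh2, and edgeR and DESeq2 called none of the 10 lower either. No member had groups that did not overlap, against 4.43% of all genes. The median log2 difference of the 10 genes was 0.16, beside 0.01 over all genes.

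Zeb1 (GSMG0018021, chr18:5591860-5775468, mm10), a zinc finger repressor of epithelial genes, was counted at 1082, 489, 1087 and 1548 in the 4 untreated M/D-driven tumors. The 4 NAM-treated tumors had 3395, 617, 1932 and 976. NAM-treated tumor 1 was the highest and the groups overlapped (log2 difference 0.54 ± 0.57), and without it the difference was 0.11.

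Zeb2 (GSMG0022776, chr2:44983512-45117395, minus strand), its paralog, stood at 4533, 2723, 4552 and 5076 in the untreated tumors and at 10997, 3750, 3425 and 5260 with NAM. NAM-treated tumor 1 again lay far above the others, and the groups overlapped. The log2 difference was 0.35 ± 0.39, and -0.01 without that tumor.

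Snai1 (GSMG0022194, chr2:167538195-167542814), the SNAIL repressor of E-cadherin, was measured at 315, 111, 345 and 358 in untreated tumors and at 200, 608, 324 and 99.5 in NAM-treated tumors. The untreated values lay inside the range of the NAM-treated ones, and the log2 difference was -0.03 ± 0.61, or 0.07 without NAM-treated tumor 1. Snai2 (GSMG0014709, chr16:14705851-14709395), or SLUG, which is also made by basal mammary cells, had 961, 1477, 1039 and 1499 without NAM. With NAM it had 85.7 in tumor 1 and 935, 1025 and 1415 in the others. In NAM-treated tumor 1 the summed basal and luminal markers were both the lowest of the model, at 1744 and 6034. In the other M/D-driven tumors the basal sums ran from 115018 to 1309104, and Snai2 from 935 to 1499. The part of basal cells in the low Snai2 value was not tested. The log2 difference of -1.06 ± 0.81 was -0.14 without NAM-treated tumor 1.

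Twist1 (GSMG0007960, chr12:33957671-33959829), a basic helix-loop-helix factor of mesoderm and cancer invasion, was counted at 443, 548, 416 and 574 in untreated tumors. NAM-treated tumors spread on both sides of these, at 318, 2319, 1255 and 246. The log2 difference was 0.49 ± 0.69, and 0.87 without NAM-treated tumor 1.

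Vim (GSMG0020683, chr2:13573952-13582826), the intermediate filament of mesenchymal cells, was counted at 57063, 37310, 42779 and 75179 in the untreated tumors and at 71691, 73723, 43048 and 97208 with NAM. The groups overlapped, and the log2 difference was 0.42 ± 0.31, or 0.40 without NAM-treated tumor 1. Fn1 (GSMG0001727, chr1:71585473-71653234, minus strand), the matrix glycoprotein fibronectin, was counted at 84810, 20045, 57538 and 73101 without NAM. With NAM it was at 24395, 57438, 57862 and 34507, within that range, with a log2 difference of -0.34 ± 0.49, or -0.09 without that tumor.

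Cdh2 (GSMG0018743, chr18:16588877-16809247, minus strand) encodes N-cadherin, the cadherin of neural and mesenchymal cells and of muscle. It was at 402, 397, 240 and 221 in the untreated M/D-driven tumors and at 192, 1335, 1425 and 2314 in the NAM-treated ones. Tumor 1 of the NAM group was the lowest of all 8, and the other 3 NAM-treated tumors were above every untreated tumor. Across all 8 tumors the level was 3.15-fold higher with NAM (log2 difference 1.66 ± 0.72, unadjusted p = 0.049, adjusted p = 0.73, limma), and the exact permutation test over tumors gave p = 0.14.

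Without NAM-treated tumor 1, and so within experiment 1, Cdh2 was higher by 2.43 ± 0.33 on the log2 scale (limma, unadjusted p = 0.000101, adjusted p = 0.81). The groups then did not overlap, as held for 6.92% of 21489 genes. The exact permutation p was 0.0286, the smallest that 4 against 3 tumors allow, and 0.29 when adjusted over the 10 EMT genes. With 2.85% of all genes called higher and 2.33% lower in these 7 tumors, Cdh2 remained the only EMT gene called. Leaving out any 1 of the other 7 tumors, with NAM-treated tumor 1 kept, ended the call, with log2 differences of 1.23 to 1.79. The summed skeletal muscle markers, which also varied, stood at 156, 926, 25911 and 13227 in the untreated tumors and at 76336, 1073 and 241619 in NAM-treated tumors 2 to 4. The part of muscle in the result was not tested.

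Ovol1 (GSMG0019982, chr19:5549137-5560656, minus strand), a zinc finger factor of epithelial and epidermal differentiation, varied the most. It was counted at 4538, 937, 6557 and 11348 in untreated tumors, and at 18.7 (22 reads), 10042, 371 and 127 with NAM. NAM-treated tumors 1, 3 and 4 were below every untreated tumor and NAM-treated tumor 2 was beside the highest, so the groups overlapped. The log2 difference was -3.76 ± 1.73 (limma, unadjusted p = 0.060, adjusted p = 0.73). On the recovered reads it was far smaller, at -1.18 by edgeR and -1.14 by DESeq2, and not called. Without NAM-treated tumor 1 the limma value was -2.43 and not called. Without NAM-treated tumor 2 it was -5.43 and Ovol1 was called, and without untreated tumor 2 it was -4.48 and was called as well.

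Grhl2 (GSMG0013114, chr15:37233034-37363571), a grainyhead factor that keeps E-cadherin and claudin genes active, was almost level in the untreated tumors, at 1192, 1068, 1117 and 1063. With NAM it was at 35.7 in tumor 1 and at 895, 958 and 1180 in the others. The log2 difference of -1.34 ± 1.03 was -0.14 without tumor 1, and the groups overlapped.

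**Figure D2:**
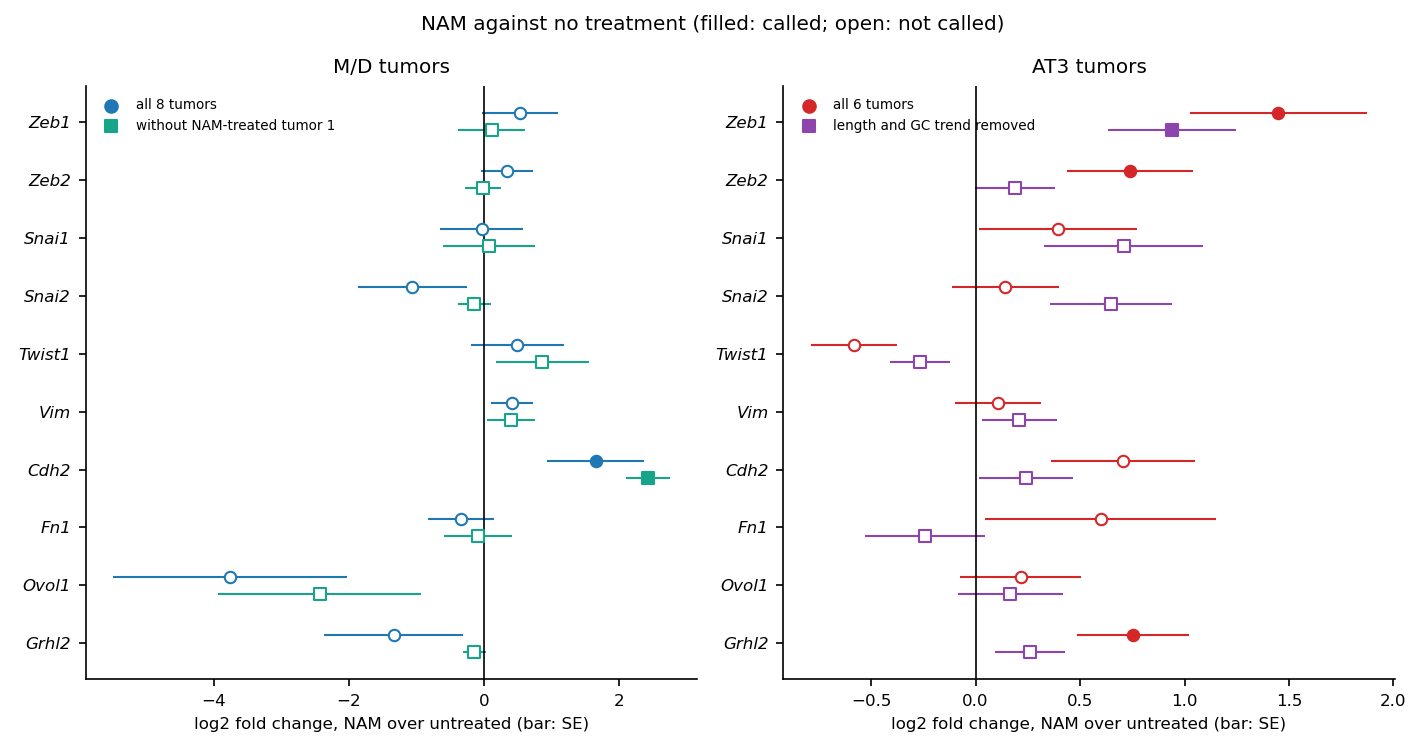
Log2 differences between NAM-treated and untreated tumors for the 10 EMT genes, with bars of 1 SE. M/D-driven tumors are shown as all 8 and without NAM-treated tumor 1. AT3 tumors are shown before and after removal of the trend over transcript length and GC content. Cdh2 lies at 1.66 with all M/D-driven tumors and at 2.43 without NAM-treated tumor 1. Zeb1 lies at 1.45 in AT3 tumors, and at 0.94 with the trend removed.

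The same question was put to the transplanted AT3 tumors. Zeb1, Zeb2 and Grhl2 were called higher with NAM, and 0 of the 10 were called lower. Among 19281 genes tested, 12.2% were called higher and 10.9% lower, so calls were common in this comparison. The count of 0 lower rested on limma, in which Twist1 passed an unadjusted p of 0.05 but had a 1.498-fold change, and edgeR and DESeq2 called none of the 10 lower either. With upper-quartile scaling Twist1 was called lower (-0.79), as it was with certain tumors left out, named with its values below. The 10 genes had a median log2 difference of 0.50, beside -0.05 over all genes. For 3 of the 10, Zeb1, Grhl2 and Twist1, the groups did not overlap, against 22.6% of all genes.

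Zeb1 was counted at 89.9, 142 and 140 in the untreated AT3 tumors and at 173, 429 and 499 with NAM. Every NAM-treated tumor was above every untreated one, with tumor 1 the lowest of its group in both. The level was 2.73-fold higher with NAM (log2 difference 1.45 ± 0.43, unadjusted p = 0.0078, adjusted p = 0.17, limma), and the exact permutation p was 0.1, the smallest that 3 against 3 tumors allow. The call remained when any 1 tumor was left out, with log2 differences of 1.16 to 1.92. On the recovered reads the adjusted p was 0.013 by DESeq2 and 0.14 by edgeR. By adjusted p, DESeq2 called 1919 genes in this comparison, edgeR 0 and limma 1, so the result at this level depended on the tool.

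Zeb2 was at 529, 1036 and 743 in untreated AT3 tumors and at 993, 1186 and 1604 with NAM. The lowest NAM-treated tumor lay under the highest untreated tumor. Zeb2 was 1.67-fold higher (log2 difference 0.74 ± 0.30, limma unadjusted p = 0.037, adjusted p = 0.19). The call was lost without untreated tumor 1 (0.49), untreated tumor 3 (0.74), NAM-treated tumor 2 (0.77) or NAM-treated tumor 3 (0.55).

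Grhl2, on the epithelial side of the balance, moved the same way as both Zeb genes. It had 409, 570 and 405 counts without NAM and 584, 920 and 845 with NAM, and the groups did not overlap, though by a narrow gap. The level was 1.69-fold higher (log2 difference 0.75 ± 0.27, limma unadjusted p = 0.020, adjusted p = 0.17). Leaving out untreated tumor 1 (0.68), untreated tumor 3 (0.67), NAM-treated tumor 2 (0.63) or NAM-treated tumor 3 (0.69) ended the call.

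Twist1 went the other way without passing both thresholds. It was at 3364, 2616 and 2810 without NAM and at 2137, 1981 and 1738 with NAM, so that every NAM-treated tumor was under every untreated one. The log2 difference was -0.58 ± 0.21 (limma unadjusted p = 0.020, adjusted p = 0.17). The change passed 1.5-fold without untreated tumor 2 (-0.66), untreated tumor 3 (-0.61) or NAM-treated tumor 1 (-0.65).

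Snai1 was at 365, 502 and 235 in untreated AT3 tumors and at 293, 518 and 645 with NAM (log2 difference 0.39). Snai2 was at 348, 304 and 410 and then at 314, 449 and 413 (0.14). Vim, at 20777, 22592 and 18699 without and 22753, 19526 and 24609 with NAM, differed by 0.11. The groups overlapped for all 3.

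Cdh2 was counted at 457, 818 and 514 in untreated AT3 tumors and at 594, 1112 and 1264 with NAM. The groups overlapped through untreated tumor 2 and NAM-treated tumor 1, and the log2 difference of 0.71 ± 0.35 (limma unadjusted p = 0.072) became 0.96 and called without the first, and 1.04 and called without the second. Fn1 was at 15699, 39694 and 12646 without and 13320, 45105 and 45487 with NAM, again with untreated tumor 2 and NAM-treated tumor 1 among those of the other group. Its log2 difference was 0.60 ± 0.55, and 1.19 and called without NAM-treated tumor 1. Ovol1 was at 265, 508 and 401 and then at 444, 491 and 389, a log2 difference of 0.22.

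In AT3 tumors, the log2 difference of a gene moved with transcript length (Spearman rho 0.59 across 16429 genes of known length, and genes share the same 6 libraries). In M/D-driven tumors rho was -0.04 over 18460 genes. Transcripts of Zeb1 and Zeb2 are 5801 and 9124 bases long, and that of Twist1 1628 bases. With the trend over length and GC content removed, 8.77% of genes were called higher and 7.3% lower. Zeb1 was still called (0.94 ± 0.31), while Zeb2 (0.19), Grhl2 (0.26) and Twist1 (-0.26) were not. Beside 12.2% of all genes called higher and 10.9% lower, 5 of 8 endothelial markers were called higher and 1 lower, 4 of 6 pericyte markers higher and 2 of 10 fibroblast markers higher. With the trend removed, beside 8.77% of all genes, 4, 3 and 2 of them were called higher. The summed endothelial markers were 5648 to 7038 in untreated and 7580 to 10304 in NAM-treated AT3 tumors, and the pericyte markers 9759 to 11412 and 13162 to 18468. Their part in the rise of Zeb1 was not tested.

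**Figure D3:**
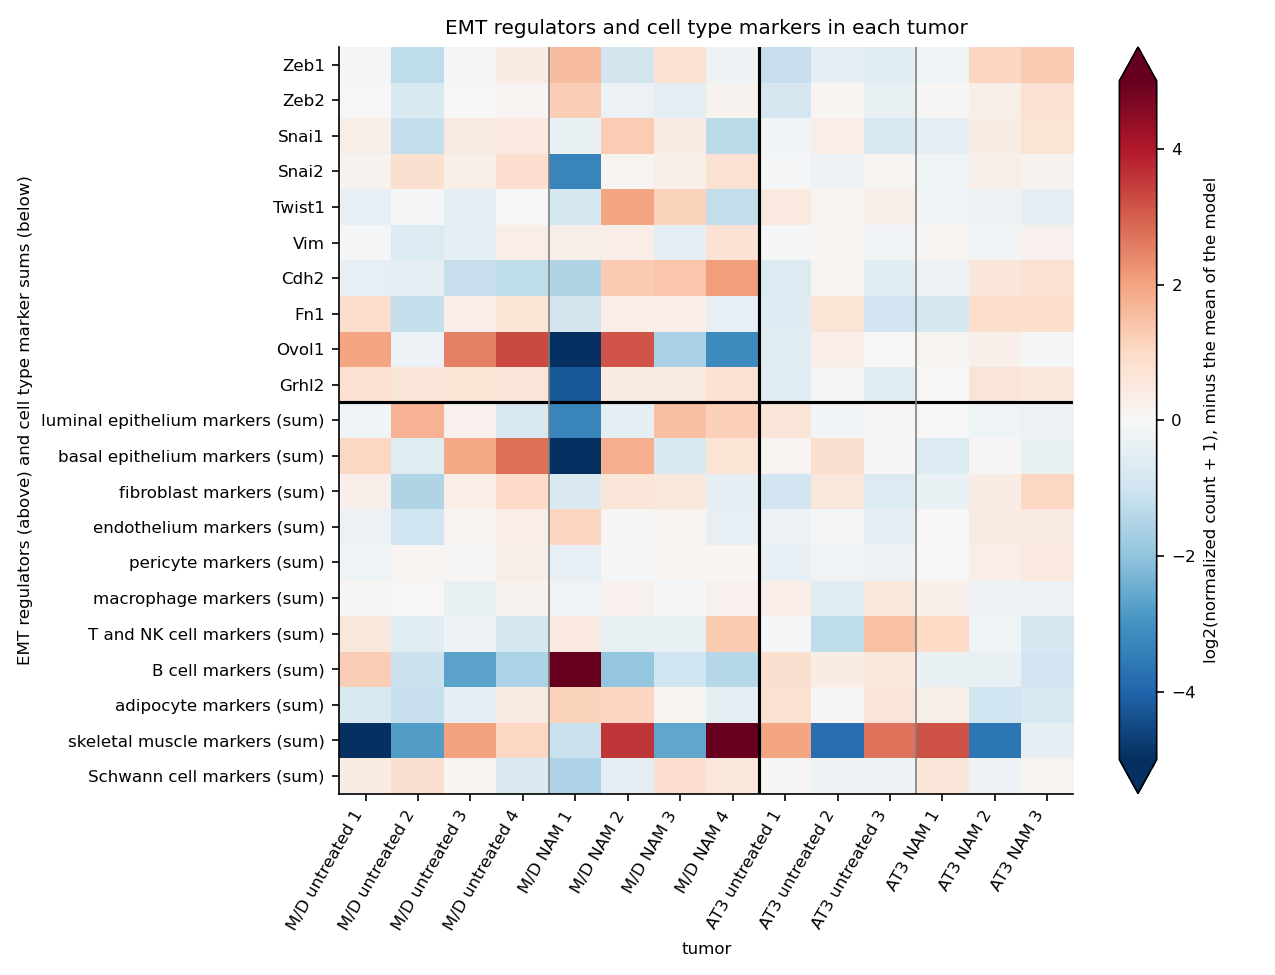
Log2 levels of the 10 EMT genes and of the summed cell type markers in each tumor, centred on the mean of its model, with colors limited to 5 log2 units on either side. M/D-driven NAM-treated tumor 1 combines low Ovol1, Grhl2 and Snai2 with low basal and luminal markers and high B cell markers, at 258464 summed counts.

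Whether NAM acted differently in the models was tested by the interaction in a fit of all 14 tumors. No EMT gene was called (limma, 0 also at an unadjusted p under 0.05), against 7.45% of 22837 genes called higher and 7.59% lower. With edgeR 0 were called, and with DESeq2 1, Twist1 (-1.71). In the limma fit the difference for Ovol1 was 3.93 ± 2.10 (unadjusted p = 0.083), that for Grhl2 2.05, for Snai2 1.16 and for Twist1 -1.12, where a positive value is a higher NAM effect in AT3 tumors. Ovol1 stood at 1.34 by edgeR and 1.25 by DESeq2, and Twist1 at -1.61 by edgeR, so the order of the genes depended on the tool. Zeb1 differed by 0.87, so the call in AT3 tumors alone did not amount to a shown difference between models. Without M/D-driven NAM-treated tumor 1, where 16.8% of all genes were called in either direction, Cdh2 (-1.76 ± 0.49, unadjusted p = 0.0032, adjusted p = 0.16, limma) and Grhl2 (0.86 ± 0.30, unadjusted p = 0.013, adjusted p = 0.20, limma) were called.

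The comparison of the models asked how EMT gene levels in transplanted AT3 tumors differed from those in M/D-driven tumors. Among untreated tumors, Zeb1, Zeb2 and Vim were lower in AT3 tumors and Twist1 was higher, each also at an adjusted p under 0.05. Of all 22837 genes, 24.4% were called higher and 27.0% lower, so that 51.4% were called in all and 44.1% at an adjusted p of 0.05. For 8 of the 10 genes, all but Snai1 and Fn1, the groups did not overlap, beside 51.7% of all genes.

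On the common scale, Zeb1 ranged from 459 to 1439 in untreated M/D-driven tumors and from 112 to 174 in untreated AT3 tumors, a gap with no overlap. It was 6.03-fold lower in AT3 tumors (log2 difference -2.59 ± 0.56, adjusted p = 0.0027, limma). Zeb2 ranged from 2558 to 4721 and from 656 to 1233, and was 4.20-fold lower (-2.07 ± 0.38, adjusted p = 0.0011, limma). Vim ranged from 35046 to 69910 and from 23191 to 26905, and was 1.88-fold lower (-0.91 ± 0.28, adjusted p = 0.019, limma). With upper-quartile scaling, which moved the median of all genes from -0.08 to 0.49, the Vim difference was -0.35 and not called.

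Twist1 ran against these. It ranged from 381 to 534 in untreated M/D-driven tumors and from 3116 to 4173 in untreated AT3 tumors, 7.83-fold higher in the latter (log2 difference 2.97 ± 0.60, adjusted p = 0.0019, limma). All 4 calls remained when any 1 of the 14 tumors was left out. Ovol1 (-3.08 ± 1.49), Snai2 (-1.39 ± 0.70) and Cdh2 (1.33 ± 0.65) were not called, with unadjusted p of 0.058, 0.068 and 0.060 from limma, nor were Fn1 (-0.98), Grhl2 (-0.88) and Snai1 (0.85). Without M/D-driven NAM-treated tumor 1, whose spread enters this fit, Cdh2 was called higher and Snai2, Ovol1 and Grhl2 lower as well, while 55.6% of all genes were called in either direction.

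**Figure D4:**
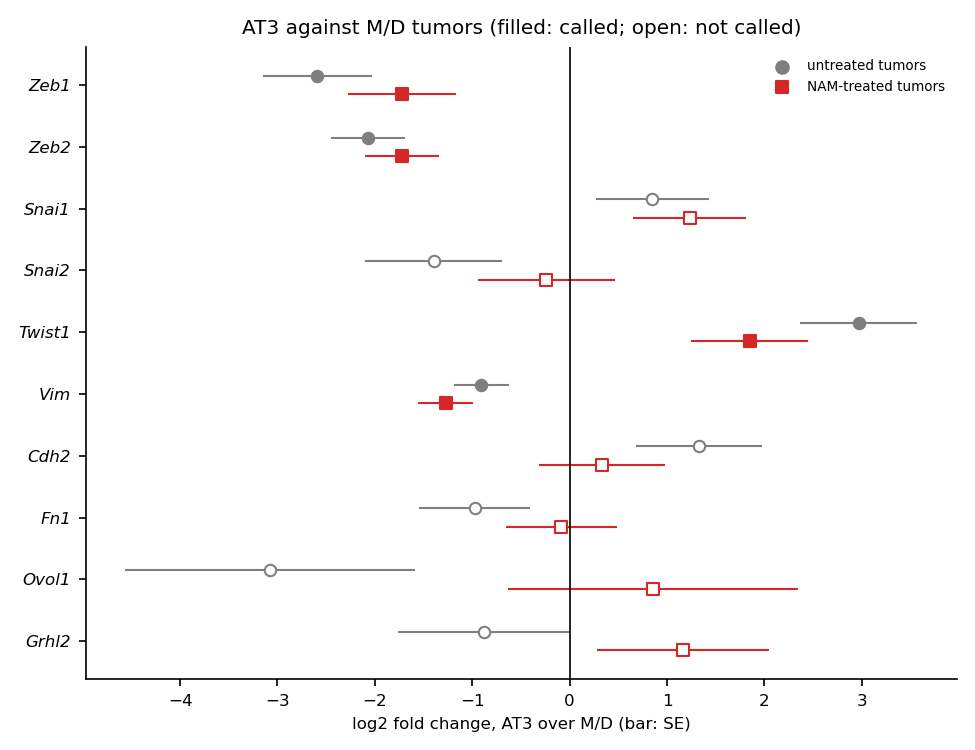
Log2 differences between AT3 and M/D-driven tumors for the 10 EMT genes, with bars of 1 SE, among untreated and among NAM-treated tumors on the common scale. Zeb1, Zeb2 and Vim lie below 0 in both, at -2.59, -2.07 and -0.91 among untreated tumors, and Twist1 lies above 0 in both.

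Among NAM-treated tumors the same 4 genes were called in the same directions, with 11.9% of all genes called higher and 17.3% lower. Zeb1 and Zeb2 were both 3.30-fold lower (adjusted p of 0.051 and 0.0086, limma) and Vim 2.41-fold lower (adjusted p = 0.0091, limma), and Twist1 was 3.60-fold higher (adjusted p = 0.052, limma). Groups did not overlap for Zeb1, Zeb2 and Vim, beside 26.6% of all genes. Twist1 overlapped, since M/D-driven NAM-treated tumor 2 had 2188 on the common scale and the AT3 tumors 2018 to 2590. The Zeb1 call was lost without AT3 NAM-treated tumor 1 (-1.27). Without M/D-driven NAM-treated tumor 1, where 13.4% of genes were called higher and 20.2% lower, Snai2 was also called lower (-1.15), and the values of Grhl2 and Ovol1 moved from 1.17 and 0.85 to -0.02 and -0.47.

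The cell type markers moved between the models too. Summed macrophage markers on the common scale were 158315 to 239615 in untreated M/D-driven and 60643 to 141746 in untreated AT3 tumors, with no listed marker at 0 in every tumor. Beside 27.0% of all genes called lower and 24.4% higher, 5 of 8 luminal markers were called lower in untreated AT3 tumors and 1 higher. Lower calls were made for 5 of 8 basal, 4 of 10 fibroblast and 5 of 8 endothelial markers. Their part in the lower Zeb1, Zeb2 and Vim was not tested.

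Genes downstream of and around the 10 were then counted over lists made for this work. In the epithelial list of 26 junction, keratin and splicing genes, none was called in either direction with NAM in M/D-driven tumors (limma, 0 also at an unadjusted p under 0.05, with 0 called by edgeR and 1 lower by DESeq2). The 26 log2 differences were all below 0 in the limma test, with a median of -1.53 beside 0.01 over all genes. Cdh1, or E-cadherin, was at 40386, 43070, 37883 and 35044 in untreated tumors and at 773, 20533, 19959 and 31298 with NAM, each NAM-treated tumor under each untreated one. Its log2 difference was -1.97 ± 1.06. Without NAM-treated tumor 1, 4 of the 26 were above 0 and the median was -0.42, beside -0.002 over all genes. Then 3 genes were called lower, beside 2.33% of all genes, and none higher, beside 2.85%. The 3 were the tight junction gene Ocln (-0.996), Ovol2 (-0.95) and Cdh1 (-0.74).

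In AT3 tumors 4 of the 26 epithelial genes were higher with NAM and 2 lower, with a median of 0.02, beside 12.2% and 10.9% of all genes. The 4 were Grhl1 (1.00), the epithelial splicing factors Esrp2 (0.95) and Esrp1 (0.93), and Cdh1 (0.90). Cdh1 had 7687, 9957 and 6626 counts without and 10460, 19039 and 16535 with NAM, which did not overlap. Krt19, a luminal keratin, was among the lower genes (-1.24). Cdh1 and Zeb1, its repressor, were thus both called higher in the NAM-treated AT3 tumors. With the length trend removed, 3 of the 26 were higher, Grhl1, Esrp2 and Esrp1, and none was lower, beside 8.77% and 7.3% of all genes. Cdh1 was not called, and the median was 0.25.

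Between the models, 12 of the 26 epithelial genes were lower in untreated AT3 tumors and none higher, beside 27.0% and 24.4% of all genes, with a median of -1.72 beside -0.08 over all genes. Without M/D-driven NAM-treated tumor 1 in the fit, 15 were lower and 1 higher, Lsr (0.97). The claudins Cldn3 (-6.87) and Cldn4 (-6.39) were the furthest apart. Among NAM-treated tumors 5 were lower, led by Krt19 (-7.00), and 3 were higher, namely Lsr (2.02), Ap1m2 (1.92) and St14 (1.37), beside 17.3% and 11.9% of all genes, with a median of 0.13. Without M/D-driven NAM-treated tumor 1, 11 were lower and the same 3 higher, at 0.80, 0.83 and 0.95, beside 20.2% and 13.4% of all genes. The median was then -0.94.

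Of 26 further mesenchymal genes, 2 were lower with NAM in M/D-driven tumors, the matrix gene Tnc (-1.91) and the forkhead factor Foxc1 (-1.87), and none was higher, beside 3.19% of all genes lower and 3.03% higher. Without NAM-treated tumor 1, Tnc was lower (-1.32), Postn, or periostin, was higher (0.64) and Foxc1 was not called. All genes were then called lower in 2.33% and higher in 2.85%, and the median of the list moved from -0.09 to 0.13. In AT3 tumors 6 were higher and none lower, beside 12.2% and 10.9% of all genes, with a median of 0.57, led by Tnc (1.71) and the collagen cross-linking enzymes Loxl2 (1.44) and Lox (1.43). Tnc was at 6386, 5207, 4567 and 4620 in untreated and 398, 4443, 1041 and 1905 in NAM-treated M/D-driven tumors. In AT3 tumors it was at 423, 1500 and 648 and then at 932, 2741 and 5681, with overlapping groups. With the length trend removed, 4 mesenchymal genes were higher in AT3 tumors and 1 lower, Foxc1 (-0.90), beside 8.77% and 7.3% of all genes. The median of the list was then 0.20. In untreated AT3 against untreated M/D-driven tumors 13 of the 26 were lower and none higher, beside 27.0% and 24.4% of all genes, among them Acta2 (-3.30), smooth muscle actin, and the receptor kinase Axl (-2.65).

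Transforming growth factor beta is the best known inducer of EMT. Of 20 genes of its input, 2 were lower with NAM in M/D-driven tumors, the activin subunit Inhba (-2.63) and the SMAD corepressor Skil (-0.66), beside 3.19% of all genes. Neither was called without NAM-treated tumor 1 or with the length trend removed. With the trend removed none of the 20 was called, beside 1.9% of all genes higher and 3.43% lower. In AT3 tumors 7 were higher and none lower, beside 12.2% and 10.9% of all genes, with a median of 0.52, among them Smad3 (1.48), the corepressor Ski (1.42) and the receptor Tgfbr1 (1.38). Tgfbr1 was at 180, 176 and 204 without and 256, 622 and 713 with NAM, with no overlap. With the length trend removed 4 were higher, Tgfbr1 (1.03), Smad3 (0.92), Tgfbi (0.79) and Ski (0.78), beside 8.77% of all genes, and the median was 0.14. In the untreated comparison of models 10 of 20 were lower in AT3 tumors and none higher, beside 27.0% and 24.4% of all genes.

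Of 19 genes for repressor partners and turnover of the SNAIL and ZEB proteins, 1 was lower with NAM in M/D-driven tumors, beside 3.19% of all genes. It was the LIM protein gene Ajuba (-0.96). Without NAM-treated tumor 1, Ajuba was at -0.62 and called, beside 2.33% of all genes lower. In AT3 tumors 5 were higher and none lower, beside 12.2% and 10.9% of all genes, with a median of 0.35, led by the corepressor Rcor1 (1.48), the scaffold Sin3a (0.92) and the kinase Gsk3b (0.91). With the length trend removed 2 were higher, beside 8.77% of all genes. In the untreated comparison of models 7 were lower in AT3 tumors, led by Rcor1 (-2.47), and 1 was higher, Lmo4 (1.49), beside 27.0% and 24.4% of all genes. For this list and the TGF-beta and mesenchymal lists, edgeR and DESeq2 also called none lower with NAM in AT3 tumors.

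Transcripts from the miR-200 loci came last. The entries Mir200a, Mir200b, Mir200c and Mir141 had at most 4.07 normalized counts in any tumor and were not tested. The entry named for Mir429 and Gm13648 (GSMG0028767, chr4:156052718-156059802) spans the hairpins of miR-200b, miR-200a and miR-429, whose mature sequences are printed above. It had 441, 697 and 384 counts in untreated AT3 tumors and 307, 226 and 223 with NAM, every NAM-treated tumor under every untreated one. It was lower by -0.97 ± 0.30 on the log2 scale (unadjusted p = 0.0097, adjusted p = 0.17, limma). With the length trend removed, its log2 difference was -0.52 and it was not called.

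In M/D-driven tumors the Mir429 entry was at 218, 118, 362 and 126 without NAM and at 6.79, 434, 363 and 592 with NAM. NAM-treated tumor 1 was far under all others, and the other 3 were level with or above the highest untreated tumor. The log2 difference was -0.18 with all 8 tumors, 0.73 by edgeR and 0.75 by DESeq2, none of them called. It was 1.28, called higher, without NAM-treated tumor 1. The interaction without that tumor was -2.30 and was called at the unadjusted p, in a fit that called 16.8% of all genes. In that fit 0 genes reached an adjusted p of 0.05 (limma). The estimates for this entry then had opposite signs in the models, which did not amount to a shown difference. The mature miRNAs were not measured.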

How the data were processed

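RNA was extracted from 14 tumors, 1 polyA library per tumor (Illumina TruSeq, paired ends). Per the submitters' notes and the study's methods, the authors aligned reads to mm10 with STAR (2.4.0), counted those on constitutive regions of Mouse FAST DB genes and normalized the counts with DESeq2. The deposited values are these normalized counts (a signal, not raw counts), written separately for the M/D-driven and the AT3 tumors, which were therefore normalized apart. Whether reads were counted by strand is not given in the sources used here, so overlapping genes may share reads. Of 56414 genes, 19524 were at 0 in every tumor and 30657 had no symbol. The value columns of no mapped tumor numbered 0.

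Low values gave the worth of 1 read, and 100% of values were whole reads within 0.01, which gave totals of 40936868 to 84178009 reads per tumor. The lowest value of an EMT gene rested on 22 reads.

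Here, limma (3.58.1, R 4.3.3) was fitted within each model to log2(normalized count + 1), a pseudocount of 1, for genes with a mean of at least 10 in a group, with Benjamini-Hochberg adjustment over all genes tested. The models and the interaction were fitted over all 14 tumors after the recovered reads were put on 1 scale by DESeq2 size factors. Calls needed both a change of 1.5-fold or more and p no higher than 0.05 before adjustment. Alternatives were edgeR (4.0.16) and DESeq2 (1.42.0) on recovered reads, TMM and upper-quartile scaling, other filters, a spline (4 df) over transcript length and GC content, the replicate number as a block, 1 fit of all tumors, and each tumor left out. The scripts were tested on simulated data. Tables used pandas (2.3.3) and numpy (2.4.6), and figures matplotlib (3.10.9), in Python 3.11.15.

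All 10 EMT genes were named. Of 177 genes on further lists, 1 was not in the table, and up to 3 genes per list, direction and comparison were named by size of change among those called, beside Cdh1 and the miR-200 loci. Values of 1 list gene are not reported here. The EMT genes and the lists were chosen with earlier results of these data known. The labels tie no tumors of both groups to 1 animal or day, and p-values measure the spread between tumors.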

Additional observations from a re-analysis of the deposited data

Results flagged for a closer look

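Ovol1 in M/D-driven NAM-treated tumor 2, at 10042 normalized counts, stood far from the other 3 tumors of its group, which had 18.7, 371 and 127. Its gap to the nearest of them was 0.965 of the range of the group. In 20 groups of 4 tumors this was the 1 such value, and chance gives about 1 in 20.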

How the results depend on the processing

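Groups of 3 or 4 tumors set the limits. Among the 10 EMT genes in M/D-driven tumors, none was called higher (0) with a mean of at least 50, TMM scaling, the length and GC trend removed or the replicate block, and 1 was called lower with no filter or with all 14 tumors in 1 fit. Over all genes, 1350 were called, and 2180 with no filter, 859 with a mean of at least 50, 2092 with DESeq2 and 2201 with all 14 tumors in 1 fit. In AT3 tumors, 1 EMT gene was called higher with upper-quartile scaling, with the trend removed or with all 14 tumors in 1 fit, and 1 lower with upper-quartile scaling, while 2640 genes were called with the trend removed against 4458. Between untreated models, 3 were higher with upper-quartile scaling, 2 with DESeq2 or the trend removed, and 5 lower with TMM, edgeR or DESeq2. Between NAM-treated models, 2 were higher with no filter, upper-quartile scaling or the trend removed. In the interaction, DESeq2 called 1 lower, and 2134 genes were called with the trend removed. The causes of these moves were not tested. With 1 tumor left out in turn, the EMT genes called higher and lower and the genes called in all ranged over 0 to 1, 0 to 1 and 784 to 2712 in M/D-driven tumors, 1 to 5, 0 to 1 and 1618 to 6765 in AT3 tumors, 1 to 2, 3 to 6 and 10244 to 12597 between untreated models, 1 to 3, 2 to 4 and 5496 to 7624 between NAM-treated models, and 0 to 1, 0 to 1 and 1892 to 4604 for the interaction. Members with groups that did not overlap numbered 0 to 1 in M/D-driven and 3 to 8 in AT3 tumors. At an adjusted p of 0.05, 1 gene was called in M/D-driven tumors (edgeR 0, DESeq2 179), 1 in AT3 tumors (edgeR 0, DESeq2 1919, block 1296) and 0 for the interaction (DESeq2 821).

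Signs turned for values that were not called. With NAM in M/D-driven tumors, Snai1 was 0.0760 (upper quartile), 0.10 (edgeR), 0.12 (DESeq2) and 0.0723 (trend removed). In AT3 tumors, Snai2 was -0.0679 and Vim -0.10 (upper quartile), and Fn1 -0.24 (trend removed). Between untreated models Fn1 was 0.0908 (trend removed). Between NAM-treated models, Snai2 was 0.0181 (upper quartile), Cdh2 -0.0488 (edgeR) and -0.0505 (DESeq2), Ovol1 -2.22 (edgeR) and -2.26 (DESeq2), and Fn1 0.17 (upper quartile), 0.0313 (edgeR), 0.0103 (DESeq2) and 0.18 (trend removed). In the interaction Zeb2 was -0.0878 (trend removed). With 1 tumor left out, signs turned within -0.0130 to 0.55 for Zeb2, -0.46 to 0.41 for Snai1 and -0.0880 to 0.99 for Twist1 in M/D-driven tumors, -0.0377 to 0.43 for Ovol1 in AT3 tumors, -1.15 to 0.17 for Snai2, -0.44 to 0.74 for Cdh2, -0.37 to 0.48 for Fn1, -0.47 to 2.54 for Ovol1 and -0.0225 to 1.63 for Grhl2 between NAM-treated models, and -0.0739 to 0.82 for Snai1 in the interaction.

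Upper-quartile scaling moved the median over all genes from 0.01 to 0.12 (M/D), -0.05 to -0.26 (AT3), -0.08 to 0.49 (untreated models), -0.10 to 0.15 (NAM-treated models) and -0.09 to -0.39 (interaction), and the percentage higher among called genes from 48.7 to 61.6, 52.9 to 29.5, 47.4 to 67.4, 40.8 to 58.5 and 49.5 to 22.6. That percentage was 60.6 with edgeR, 61.5 with DESeq2 and 35.6 with the trend removed in M/D-driven tumors, and 65.4 with TMM for the interaction. Medians also moved to -0.24 (TMM, untreated models), -0.21 (edgeR, NAM-treated models) and -0.22 (DESeq2, NAM-treated models). Deviations of tumors with the same replicate number had correlations of 0.11, -0.44, -0.22 and -0.19 in M/D-driven and 0.13, 0.26 and -0.16 in AT3 tumors. With groups of 3 or 4 tumors, these cannot tell whether a replicate number marks anything shared. In AT3 tumors, 1296 genes reached an adjusted p of 0.05 with the replicate number as a block, against 1 without it (limma). With that number as a block, 0 EMT genes were called higher in M/D-driven and 4 in AT3 tumors, where Cdh2 joined, and 0 in the interaction.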

Other observations

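The genes whose pattern over the 14 tumors was closest to each EMT gene were found by the root mean square difference of log2 counts, centred within each model, among 12226 genes with a mean of at least 50 in both models. The tumors share libraries and depth with every gene, so this is a description. M/D-driven NAM-treated tumor 1 was kept in. It had the lowest value of its model for Snai2, Cdh2, Ovol1 and Grhl2 and the highest for Zeb1 and Zeb2. Their spreads and neighbours therefore rest in part on this tumor, and the search was not repeated without it. Fn1 was closest to Col6a3, a chain of collagen VI (0.26 log2 units, against a spread of 0.762 for Fn1 itself), and then to the aggrecanase Adamts4 (0.293). Grhl2 was closest to Ddr1, an epithelial collagen receptor (0.235, own spread 1.26), and Ank3 (0.241). Ovol1 was closest to the keratin Krt80 (0.536, own spread 2.37) and to Sult2b1, a sulfotransferase of keratinocytes (0.671).

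Zeb2 was closest to Madd (0.199, own spread 0.535) and the kinase Jak1 (0.201), and Zeb1 to Gpam (0.345, own spread 0.86) and Pcdh17 (0.358). Snai2 was closest to Tmem184a (0.193, own spread 0.97) and Snai1 to Begain (0.285, own spread 0.712). Cdh2 had no close neighbour, with Lmtk3 at 0.54 and Pxdn at 0.586 beside its own spread of 1.05, and the same held for Twist1, with Myl6b at 0.436 beside 0.78. Vim was closest to Pla2g15 (0.238), which left most of its own spread of 0.358.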
